A study of Mus musculus with 6 samples.

Results

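The Hox genes described here are the 38 protein-coding genes named Hoxa, Hoxb, Hoxc or Hoxd with a number, out of 49671 genes listed in each table of counts. They lie in 4 clusters of the mouse genome (build GRCm38). Cluster A has 10 of them at chromosome 6, from 52162417 to 52260880. Cluster B has 10 at chromosome 11, from 96194316 to 96368256. Cluster C has 9 at chromosome 15, from 102921103 to 103036852, and cluster D has 9 at chromosome 2, from 74668310 to 74765142.

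RNA was measured in 3 GFP and 3 Tomato libraries of Podoplanin-positive cancer-associated fibroblasts (CAFs) sorted from pancreatic tumours. Both fractions came from the same kind of host, Rosa-mTmG; Fabp4-Cre mice on a C57BL/6J background. FC1199 cells, a mouse pancreatic cancer line, had been put into the pancreas when the mice were 8 weeks old, and tumours grew for 4 weeks, so that hosts were 12 weeks old. GFP cells are those in which Cre has recombined the reporter, and the labels call them derived from stellate cells; Tomato cells are unrecombined, and the labels call them not derived from stellate cells. The comparison asks how these 2 fibroblast populations differ. The model has limits that both fractions share: Fabp4 is also known to be active in adipocytes, endothelium and macrophages, only 1 cancer line was used, and every cell passed the same Podoplanin gate. The labels number the libraries 1 to 3 in each fraction and give no animal for any of them. The p-values thus describe the spread among these libraries, which may be technical.

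Hox proteins are homeodomain transcription factors that give cells their position along the head-to-tail axis of the embryo. Within a cluster the genes are switched on in the order in which they stand on the chromosome, with low-numbered (anterior) genes active nearer the head and high-numbered (posterior) genes nearer the tail, and genes of equal number in different clusters (paralogues) have related functions. Adult fibroblasts and other mesenchymal cells are known to keep the Hox pattern of the body region they came from. In the mouse embryo, the paralogues Hoxa6, Hoxb6 and Hoxc6 are known to be expressed in the mesoderm around the pancreas and to be needed for its endocrine cells.

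Total counts per library were 33378377 to 42154933, of which 5267 to 6031 were Hox counts. Values are CPM, the counts scaled to a common library total by TMM. A value of 3 counts, taken as the limit that a count of 0 allows, was 0.07 to 0.0895 CPM per library, and this limit covers counting error only. Podoplanin (Pdpn), the sorting marker, had 376 to 444 CPM in GFP libraries and 411 to 449 CPM in Tomato libraries, and Fabp4, whose promoter drives the Cre, had 15.5 to 18.6 CPM and 17.3 to 19.1 CPM in GFP and in Tomato libraries. The collagen gene Col1a1 had 30532 to 37073 CPM in GFP libraries, against 10980 to 17421 CPM in Tomato libraries. Markers of other cell types moved with the fractions. The 12 mesothelial markers summed to 170.4 to 225 CPM in GFP libraries, against 1966 to 2192 CPM in Tomato libraries (11 lower, 0 higher), with Msln at 4.5 to 11 against 264 to 367 CPM. The 15 macrophage and monocyte markers summed to 158 to 250.2 CPM in GFP libraries, against 1124 to 2819 CPM in Tomato libraries (15 lower), with Ptprc at 1.7 to 3.07 against 17 to 30.2 CPM. The 10 epithelial and cancer cell markers summed to 118 to 148 CPM in GFP libraries, against 580.3 to 704 CPM in Tomato libraries (6 lower), with Epcam at 4.33 to 5.81 against 10.6 to 15.3 CPM. The keratin genes Krt7, Krt8, Krt18 and Krt19 made up most of this Tomato sum, and Krt19 is also part of the mesothelial sum. Cldn4, Cldn7, Muc1 and Sox9 were not called. The 6 lymphatic endothelial markers found summed to 319 to 506 CPM in GFP libraries, against 26.1 to 81.7 CPM in Tomato libraries (6 higher), with Prox1 at 21.3 to 36 against 1.11 to 5.83 CPM. The 12 pan and blood endothelial markers summed to 334 to 393 CPM in GFP libraries, against 111 to 185 CPM in Tomato libraries (8 higher), with Cdh5 at 8.03 to 17.4 against 0.516 to 2.12 CPM. The 12 fibroblast markers summed to 132001 to 146895 CPM in GFP libraries, against 64404 to 98439 CPM in Tomato libraries (6 higher), and the 8 pericyte and smooth muscle markers to 132 to 194 CPM in GFP libraries, against 143 to 230.0 CPM in Tomato libraries (3 higher, 1 lower). No marker found was at 0 in all libraries. The part of these cell types in the Hox differences below was not tested.

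Hox expression in both fractions was an anterior-to-central pattern with little posterior expression. Of the 38 genes, 17 reached a mean of 1 CPM in at least 1 fraction: 4 of 7 anterior genes (numbers 1 to 3), 12 of 15 central genes (numbers 4 to 8) and 1 of 16 posterior genes (numbers 9 to 13). The detected posterior gene was Hoxd9. No count at all was found in any library for Hoxc11, Hoxc12, Hoxd12 and Hoxd13, the genes of hindlimb, genital and tail regions. A further 6 genes had 1 to 10 counts over all 6 libraries: Hoxa13, Hoxb13, Hoxc13, Hoxd1, Hoxd3 and Hoxd11.

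**Figure D1:**
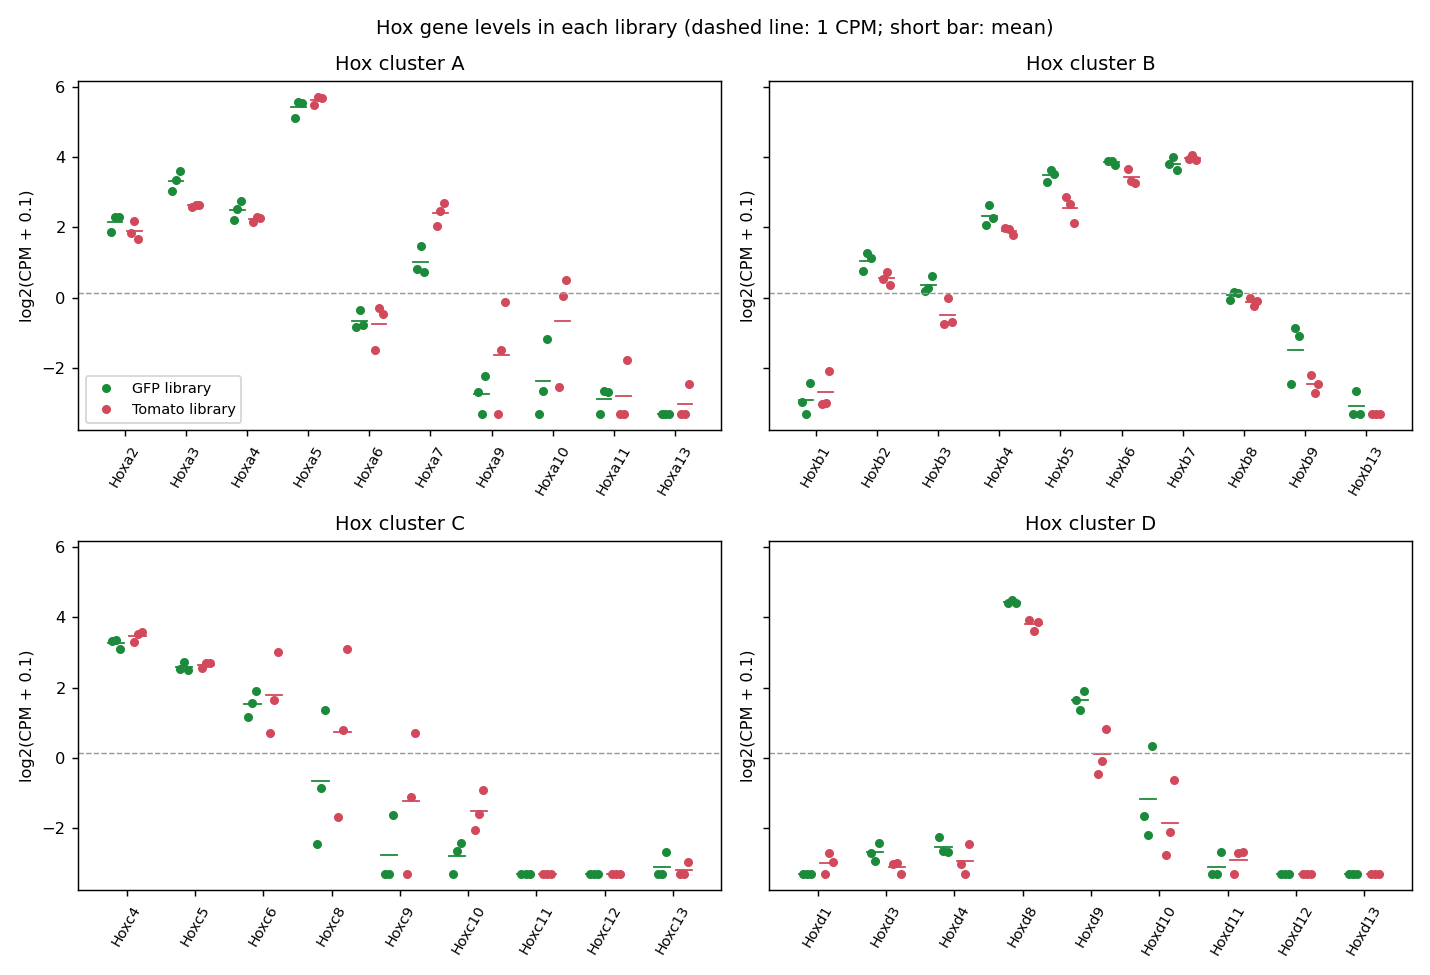
Level of each Hox gene in each library, as log2(CPM + 0.1), by cluster and in order of gene number. Each point is a library, GFP (green) left of Tomato (red), and short bars are means of the log2 values. The dashed line marks 1 CPM. In clusters A, B and C, no gene above number 8 has a GFP library above the line, and in cluster D Hoxd9 and 1 GFP library of Hoxd10 lie above it.

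Per kilobase of exon not shared with another gene (RPKM), Hoxa5 was the most abundant Hox gene, at 23.1 ± 3.89 RPKM in GFP libraries and 26.5 ± 2.16 RPKM in Tomato libraries (SD, n = 3 each). Hoxa5 is known for its role in the mesenchyme of the developing lung and gut. Its level over the 6 libraries exceeded that of 89.2% of the 17629 protein-coding genes with any count. Hoxb7 came next, at 9.11 ± 1.15 RPKM in GFP libraries and 10.2 ± 0.551 RPKM in Tomato libraries. Hoxd8 had 7.91 ± 0.283 RPKM in GFP libraries and 5.09 ± 0.576 RPKM in Tomato libraries, and Hoxb6 had 7.32 ± 0.338 RPKM and 5.48 ± 0.847 RPKM in GFP and in Tomato libraries. In Tomato libraries Hoxd8 and Hoxb6 did not differ beyond their spread. Hoxa4 had 4.21 ± 0.785 RPKM in GFP libraries and 3.47 ± 0.207 RPKM in Tomato libraries, and Hoxc4 had 3.7 ± 0.346 RPKM and 4.29 ± 0.458 RPKM in GFP and in Tomato libraries. Their libraries overlapped in the GFP fraction and stood apart in the Tomato fraction, with Hoxc4 higher. In the count for both strands together, the 4 most abundant genes were Hoxa5, Hoxb7, Hoxd8 and Hoxb6. They made up 62.8% of the summed RPKM of all 38 genes in GFP libraries and 64.8% in Tomato libraries. That count held few of the reads that the columns for single strands gave to Hoxb2 and Hoxb3, as described below.

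The summed level itself was 75.5 ± 7.66 RPKM in GFP libraries and 73.2 ± 5.43 RPKM in Tomato libraries (SD, n = 3 each), a difference smaller than the spread. Cluster D held a share of 14.1%, 11.7% and 13% of it in the GFP libraries, against 8.74%, 6.67% and 8.34% in the Tomato libraries, and the fractions did not overlap. Cluster A held 44.9 ± 3.38% in GFP libraries and 50.6 ± 2.17% in Tomato libraries, with every GFP library below every Tomato library. Cluster B held 32.4 ± 2.69% and 28.3 ± 4.22%, and cluster C 9.73 ± 0.401% and 13.2 ± 4.34%, in GFP and in Tomato libraries. For clusters B and C the libraries of the fractions overlapped. All these shares depend on the count column used. The count for both strands held 4.09% of the reads in the single-strand columns for Hoxb2 and 14.2% for Hoxb3. With the single-strand columns summed, per kilobase of total exon, Hoxb2 had a mean of 11.1 RPKM beside 23.5 RPKM for Hoxa5. The lead of cluster A over cluster B is thus not established. The Hox6 paralogues known from pancreatic mesoderm, Hoxa6, Hoxb6 and Hoxc6, together held 12.2 ± 1.06% in GFP libraries and 10.7 ± 0.931% in Tomato libraries, with overlapping libraries, and most of it came from Hoxb6.

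In the comparison of GFP with Tomato, 20 of the 38 genes passed the filter on low counts and were tested, and 18 were not. Of the 20, 5 were higher in GFP (Hoxd8, Hoxd9, Hoxa3, Hoxb5 and Hoxb6), 1 was lower (Hoxa7) and 14 did not pass the test (edgeR's quasi-likelihood test, adjusted p under 0.05 over 15608 genes). Over all genes tested, 28.9% were called, 13.1% higher and 15.7% lower, so that the 6 of 20 Hox genes called are near that background. The median log2 fold change of the 20 was 0.24. For 9 of the 20, all GFP libraries lay on one side of all Tomato libraries, 8 above and 1 below, where 48.6% of all genes tested did not overlap (23.4% with GFP above and 25.2% with GFP below). In bulk RNA, fewer cells of a type and less RNA per cell cannot be told apart. With the replicate number as a block, 6 of the 20 were higher and 3 lower, where 20.1% of all genes were higher and 20.9% lower. With offsets for gene length and GC content, 9 were higher and 1 lower, where 17.5% of genes were higher and 10.4% lower, and with both together 10 were higher and 3 lower, where 25.7% of genes were higher and 14% lower.

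**Figure D2:**
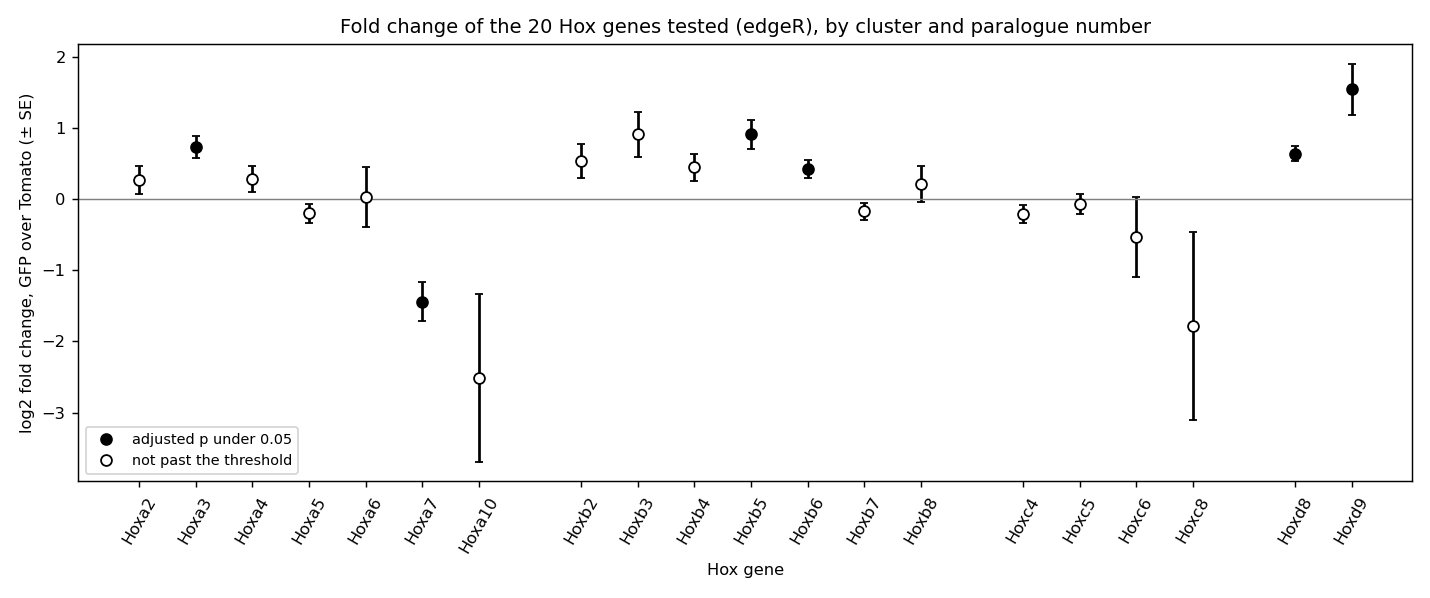
Fold change of the 20 Hox genes tested, as log2 of GFP over Tomato with its standard error (vertical axis), in order of cluster and gene number (horizontal axis). Filled points passed the test at an adjusted p of 0.05. Hoxd8, Hoxd9, Hoxa3, Hoxb5 and Hoxb6 are filled above 0 and Hoxa7 is filled below 0, while Hoxa10 and Hoxc8 have the widest error bars.

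In cluster D, the 2 genes that were tested both rose. Hoxd8, a patterning gene of the trunk (chromosome 2, 74704615 to 74707933), had 21.2, 22.6 and 21.3 CPM in the GFP libraries, against 15.2, 12.2 and 14.6 CPM in the Tomato libraries. Every GFP library was above every Tomato library. The log2 fold change was 0.64 ± 0.11 (SE; edgeR, adjusted p = 0.00536), and the gene passed the test under all 20 alternatives. Its neighbour Hoxd9, which acts with its paralogues in the lumbar region and the forelimb (chromosome 2, 74697727 to 74700208), had 3.04, 2.48 and 3.61 CPM in the GFP libraries, against 0.63, 0.849 and 1.68 CPM in the Tomato libraries. The fractions did not overlap, and this was the largest rise among the Hox genes tested, with a log2 fold change of 1.54 ± 0.36 (SE; edgeR, adjusted p = 0.0151). Without Tomato replicate 2 the adjusted p was 0.0639.

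Hoxd10, the next gene towards the posterior end, was not tested. It had 0.215, 0.119 and 1.16 CPM in the GFP libraries, against 0.0467, 0.129 and 0.543 CPM in the Tomato libraries. It was highest in the library numbered 3 of each fraction, and the fractions overlapped. Hoxd3 had 0 to 3 counts per library, Hoxd4 had 0 to 4 and Hoxd1 was at 0 in all GFP libraries. For Hoxd3, 62.8% of exon bases are shared with other genes in the annotation, and for Hoxd4 52.3%, among them those of Gm28230, a transcript model on the same strand that joins both, and reads there cannot be told apart between these genes.

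The promoters of these neighbours, which rose together, and of Hoxa7, the Hox gene that fell, are shown as 250 bases before to 50 bases after the start given by RefSeq (build GRCm38.p6), 5′ to 3′ on the gene's strand. Capitals mark the letters AGGTCA, the core letters bound by retinoid and other nuclear receptors. The Hoxd8 window is chr2:74704365-74704664 on the plus strand, the Hoxd9 window is chr2:74697513-74697812 on the plus strand and the Hoxa7 window is chr6:52218524-52218823 on the minus strand. The Hoxa7 window lies inside the gene as annotated for the counts here (52214491 to 52221854), and not at its 5′ end.
Hoxd8: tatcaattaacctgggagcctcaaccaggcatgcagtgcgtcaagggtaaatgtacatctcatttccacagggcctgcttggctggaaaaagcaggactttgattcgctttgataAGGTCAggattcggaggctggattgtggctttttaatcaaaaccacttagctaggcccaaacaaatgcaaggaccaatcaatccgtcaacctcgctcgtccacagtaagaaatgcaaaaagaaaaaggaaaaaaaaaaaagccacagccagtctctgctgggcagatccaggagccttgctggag
Hoxd9: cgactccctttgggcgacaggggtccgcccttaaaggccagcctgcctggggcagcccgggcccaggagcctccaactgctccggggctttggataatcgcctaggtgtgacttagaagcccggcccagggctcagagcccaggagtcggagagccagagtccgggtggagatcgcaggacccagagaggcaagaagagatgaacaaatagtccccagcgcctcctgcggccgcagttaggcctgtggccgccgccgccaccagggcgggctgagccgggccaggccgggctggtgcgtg
Hoxa7: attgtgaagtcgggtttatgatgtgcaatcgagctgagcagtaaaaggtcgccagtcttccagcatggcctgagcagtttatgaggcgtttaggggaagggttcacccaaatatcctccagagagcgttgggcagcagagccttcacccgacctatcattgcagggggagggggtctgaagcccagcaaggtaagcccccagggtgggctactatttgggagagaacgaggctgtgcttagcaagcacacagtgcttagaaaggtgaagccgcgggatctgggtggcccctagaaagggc
The Hoxd8 window held 1 match to AGGTCA, 135 bases before the start, and neither of the other windows held one. Of the 38 genes, 22 had such a window, with 24 windows in all. Searched on both strands, AGGTCA was found in 7 of the 24 windows and in 16.3% of all 32851 windows. The letters TGATNNAT, a site of Hox proteins with Pbx, were in 4 of the 24 and in 8.85% of all, and TATAAA was in 4 of the 24 and in 13.6% of all. The windows of Hoxd8, Hoxd9 and Hoxa7 held neither TGATNNAT nor TATAAA. GC content was 46.7% for the Hoxd8 window, 68.3% for Hoxd9 and 55.7% for Hoxa7.

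In cluster A, an anterior gene rose and a central gene fell. Hoxa3, needed for the thymus and other derivatives of the pharynx (chromosome 6, 52169062 to 52213336), had 8.08, 10.1 and 12.1 CPM in the GFP libraries, against 5.93, 6.13 and 6.16 CPM in the Tomato libraries. All GFP libraries were above all Tomato libraries, which lay close together, and the log2 fold change was 0.73 ± 0.16 (SE; edgeR, adjusted p = 0.0131). Hoxa7, a gene of the thoracic region (chromosome 6, 52214491 to 52221854), had 1.67, 2.66 and 1.55 CPM in the GFP libraries, against 4.04, 5.43 and 6.44 CPM in the Tomato libraries. All GFP libraries were below all Tomato libraries, with a log2 fold change of -1.44 ± 0.27 (SE; edgeR, adjusted p = 0.00612). Both genes passed the test under all 20 alternatives. The other cluster A genes tested did not pass. Hoxa5 had 34.9, 48.0 and 47.0 CPM in the GFP libraries, against 45.1, 52.6 and 51.4 CPM in the Tomato libraries, a log2 fold change of -0.20 ± 0.13. Its fractions overlapped, and the sign turned with the length and GC offsets (0.14). Hoxa2, a gene of the hindbrain and branchial arches, had 3.58 to 4.86 CPM in GFP libraries and 3.1 to 4.43 CPM in Tomato libraries (log2 fold change 0.27). Hoxa4 had 4.58 to 6.68 CPM in GFP libraries and 4.34 to 4.86 CPM in Tomato libraries (0.28). Both were called higher with the length and GC offsets, at 0.62 with an adjusted p of 0.0476 for Hoxa2 and at 0.54 with an adjusted p of 0.0354 for Hoxa4. Hoxa6 had 0.458 to 0.686 CPM in GFP libraries and 0.257 to 0.721 CPM in Tomato libraries.

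In cluster B, 2 neighbouring central genes rose. Hoxb5, known from enteric neurons, lung and blood stem cells (chromosome 11, 96303336 to 96306121), had 9.67, 12.4 and 11.4 CPM in the GFP libraries, against 7.16, 6.31 and 4.26 CPM in the Tomato libraries. The fractions did not overlap, and the log2 fold change was 0.91 ± 0.20 (SE; edgeR, adjusted p = 0.0119), past the threshold under all 20 alternatives. Hoxb6, a Hox6 paralogue of pancreatic mesoderm (chromosome 11, 96292476 to 96301569), had 14.8, 14.7 and 13.6 CPM in the GFP libraries, against 12.7, 10 and 9.59 CPM in the Tomato libraries. Its log2 fold change was 0.42 ± 0.13 (SE; edgeR, adjusted p = 0.0466). This call was lost in 9 of 20 alternatives, among them 5 of the 6 that leave out a library, with adjusted p up to 0.152. The next gene, Hoxb7, did not pass: it had 13.8, 15.9 and 12.4 CPM in the GFP libraries, against 15.5, 16.7 and 15.1 CPM in the Tomato libraries (log2 fold change -0.17 ± 0.12), and its sign turned with the length and GC offsets (0.19). Hoxb4, which expands blood stem cells when overexpressed, had 4.12, 6.09 and 4.71 CPM in the GFP libraries, against 3.83, 3.76 and 3.34 CPM in the Tomato libraries. Its libraries did not overlap, and its adjusted p was 0.105, or 0.0285 with the length and GC offsets. Hoxb8 had 0.862 to 1.01 CPM in GFP libraries and 0.746 to 0.886 CPM in Tomato libraries.

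The anterior genes of cluster B, Hoxb2 and Hoxb3, had far fewer reads in the column used than in the columns for single strands. The deposited tables hold a count for both strands together and a count for each strand, and for some genes that overlap another gene the first was smaller than the sum of the others. Hoxb2, a hindbrain patterning gene, had 373 counts over the 6 libraries in the column for both strands and 9118 in the strand columns summed, and Hoxb3 had 202 and 1420 counts. The antisense gene Hoxb3os, which overlaps both, had 93 and 10056 counts. The strand columns' totals had a ratio of 1.002 to 1.006 per library, so that the strand of a read does not separate the genes. Reads of the overlaps cannot be told apart between Hoxb2 or Hoxb3 and Hoxb3os, and the summed columns count such a read for both genes. In the summed columns Hoxb2 had 38.8, 42.7 and 49.0 CPM in the GFP libraries, against 35.0, 36.7 and 30.2 CPM in the Tomato libraries, which would place it second among the Hox genes per kilobase, after Hoxa5. The libraries did not overlap, and the log2 fold change was 0.36 ± 0.12 (SE; edgeR, adjusted p = 0.0521). Hoxb3 had 6.27, 8.04 and 8.04 CPM in the GFP libraries, against 4.72, 5.62 and 3.77 CPM in the Tomato libraries, with a log2 fold change of 0.66 ± 0.18 (adjusted p = 0.0296), so that it was called higher. Of the 1420 counts behind this call, 1218 were not in the column for both strands and may belong to Hoxb3os. In the column for both strands, Hoxb3 had 1.05 to 1.44 CPM in GFP libraries and 0.49 to 0.901 CPM in Tomato libraries (log2 fold change 0.91 ± 0.32, adjusted p = 0.0634, and 0.045 with the replicate block). There, Hoxb2 had 1.59 to 2.3 CPM in GFP libraries and 1.19 to 1.57 CPM in Tomato libraries (0.53 ± 0.24, adjusted p = 0.12). Hoxa3, Hoxb5, Hoxa4 and Hoxa7 had smaller differences between the columns, and their calls were the same in the summed columns. For the other 19 members with at least 20 counts the strand columns held at most 1.034 times as many.

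**Figure D3:**
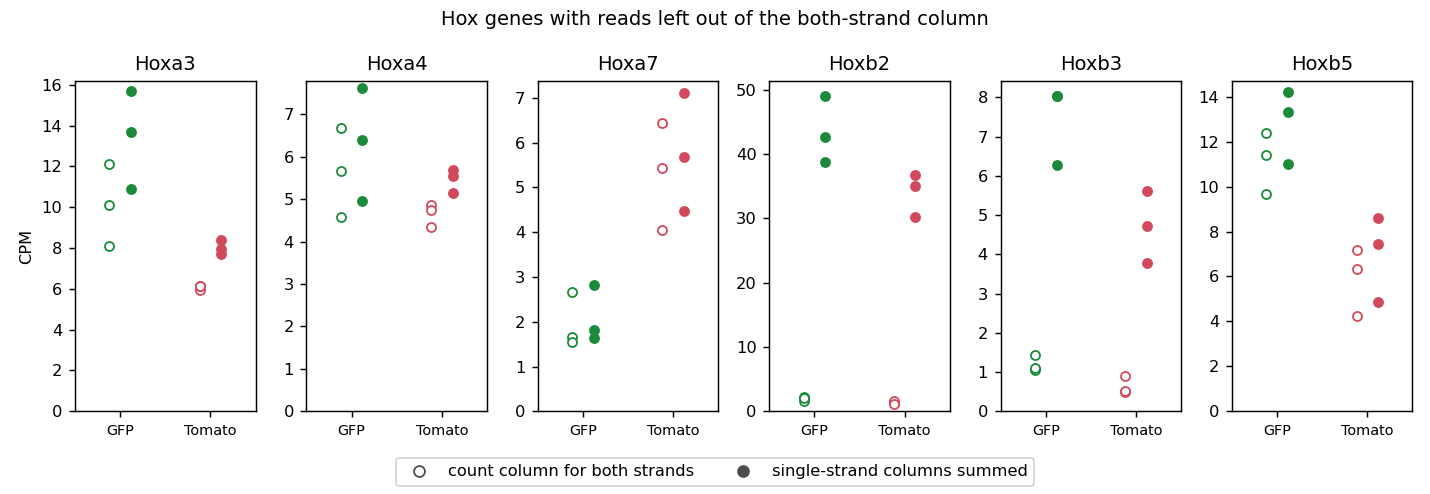
Level in CPM of the 6 Hox genes with at least 20 counts whose strand columns held at least 10 percent more reads, in GFP libraries (green, left) and Tomato libraries (red, right). Open points are the column for both strands and filled points the strand columns summed, with each panel on its own axis from 0. Hoxb2 lies at 1.19 to 2.3 CPM in the first and at 30.2 to 49.0 CPM in the second.

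In cluster C, none of the 4 genes tested passed the test without the replicate block, with edgeR, DESeq2 or limma-voom, or had an unadjusted p under 0.05. Hoxc10, which the filter on low counts left out, was called lower in the fit with no filter. All 4 genes tested in cluster C had negative log2 fold changes (median -0.37), of which those of Hoxc4 and Hoxc5 turned positive with the length and GC offsets (0.02 and 0.13). Hoxc4 had 9.91, 10.1 and 8.48 CPM in the GFP libraries, against 9.68, 11.5 and 11.9 CPM in the Tomato libraries (log2 fold change -0.21 ± 0.13). Hoxc5 had 5.52 to 6.51 CPM in GFP libraries and 5.76 to 6.46 CPM in Tomato libraries. These 2 genes were even across the libraries, and their neighbours further along the cluster were not. Hoxc6 had 2.15, 2.87 and 3.64 CPM in the GFP libraries, against 1.52, 3.01 and 8.01 CPM in the Tomato libraries. Hoxc8, which acts in the thoracic skeleton and motor neurons, had 0.0808, 0.448 and 2.45 CPM in the GFP libraries, against 0.21, 1.65 and 8.5 CPM in the Tomato libraries, from 3, 15 and 87 counts and from 9, 64 and 313 counts. In both fractions the library numbered 3 was the highest and the library numbered 1 the lowest.

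The highest library was 30.4 times the lowest for Hoxc8 in the GFP fraction and 40.5 times in the Tomato fraction. Over 15490 genes the median of this ratio was 1.23 in GFP and 1.27 in Tomato libraries, and its 99th percentile 5.23 and 4.54. Within libraries of the same number, Hoxc8 had a log2 difference of GFP minus Tomato of -1.38, -1.88 and -1.79 for numbers 1, 2 and 3. Fitted without the number, the log2 fold change was -1.79 ± 1.32 (SE; edgeR, adjusted p = 0.337). With the replicate block it was -1.78 ± 0.24 (adjusted p = 0.000762), a call of lower in GFP, and without Tomato replicate 3 it was 0.10 (adjusted p = 0.971). For Hoxc6 the log2 fold change was -0.53 ± 0.56, and 0.34 without Tomato replicate 3.

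Several posterior genes were likewise highest in the library numbered 3 of each fraction. Hoxa10, known from the uterus and lumbar vertebrae, had 0, 0.0597 and 0.338 CPM in the GFP libraries, against 0.07, 0.927 and 1.33 CPM in the Tomato libraries. Its log2 fold change was -2.51 ± 1.18 (SE; edgeR, adjusted p = 0.149), and -2.62 ± 0.52 with the replicate block (adjusted p = 0.00481), a call of lower. Hoxc9 had 0, 0 and 0.225 CPM in the GFP libraries, against 0, 0.36 and 1.55 CPM in the Tomato libraries. Hoxa9, a gene of blood progenitors, had 0.0538, 0 and 0.113 CPM in the GFP libraries, against 0, 0.257 and 0.815 CPM in the Tomato libraries. Hoxc10 had 0, 2 and 3 counts in the GFP libraries, against 6, 9 and 16 counts in the Tomato libraries. These genes, like Hoxd10, rest on few counts and, apart from Hoxa10, were not tested. Hoxb9 differed in its order, with 0.0808, 0.448 and 0.366 CPM in the GFP libraries, against 0.117, 0.0515 and 0.0815 CPM in the Tomato libraries. Hoxa11 and Hoxb1 had at most 7 and 5 counts in a library.

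**Figure D4:**
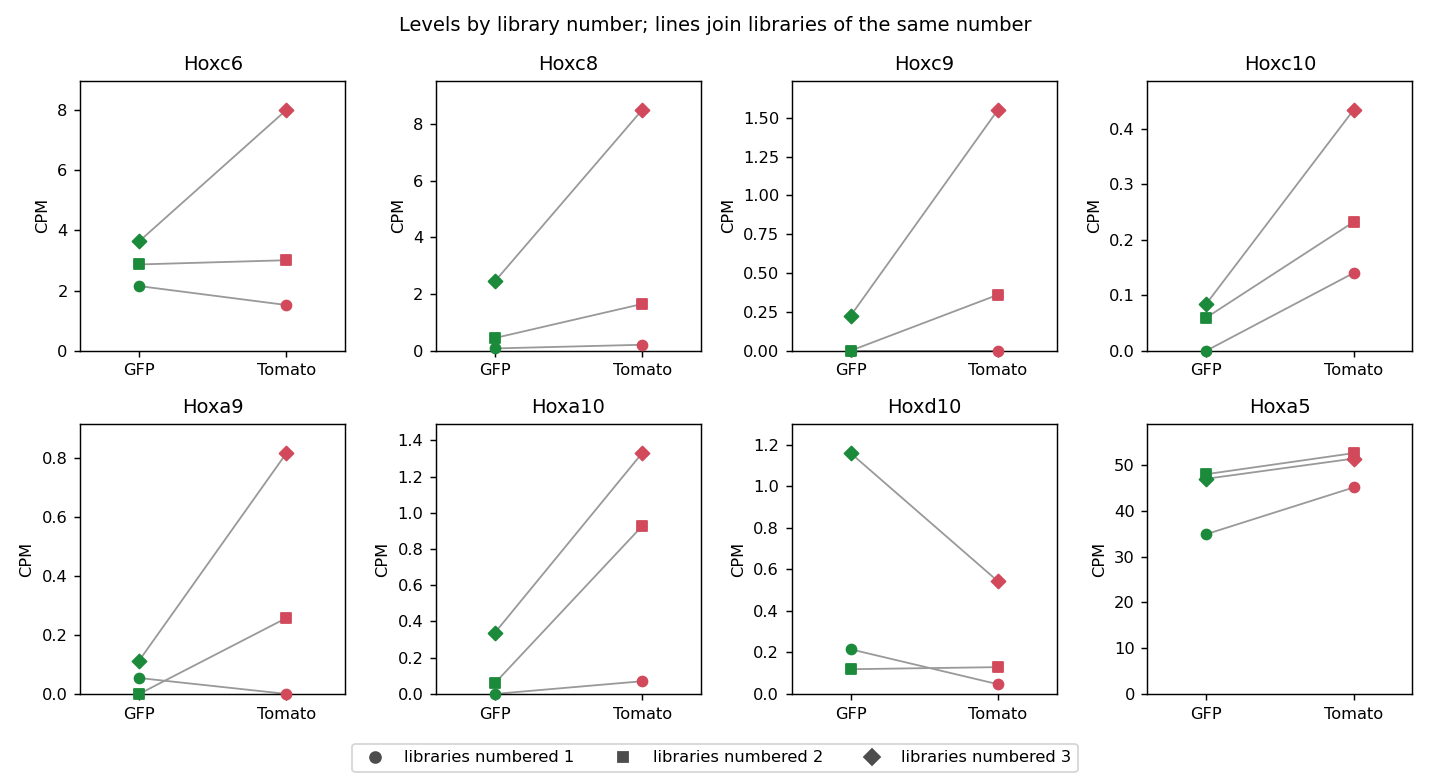
Level in CPM of 7 Hox genes that varied between libraries and of Hoxa5, in GFP (left, green) and Tomato (right, red) libraries. Circles, squares and diamonds are the libraries numbered 1, 2 and 3, lines join libraries of the same number, and each panel has its own axis from 0. Diamonds are highest in both fractions in all panels but that of Hoxa5; for Hoxc8 the GFP diamond stands at 2.45 CPM and the Tomato diamond at 8.5 CPM.

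Some other measures had an order that followed the library number. The retinoic acid genes Crabp2 and Cyp26a1, picked out after their values were seen, had the same order of libraries. Of the rest of their list, Aldh1a3, Rxrb and Cyp26c1 (at most 0.163 CPM) had this order too. Rdh10 had the opposite order, at 385.7, 350.3 and 322.8 CPM in GFP and 351.4, 323.4 and 299.1 CPM in Tomato libraries. The other genes of the list had neither order in both fractions. Crabp2, a carrier of retinoic acid, had 2.56, 6.0 and 13.8 CPM in the GFP libraries, against 5.48, 12.1 and 45.6 CPM in the Tomato libraries. Cyp26a1, which breaks retinoic acid down, had 7.49, 9.85 and 13.1 CPM in the GFP libraries, against 7.63, 17.4 and 28.4 CPM in the Tomato libraries. In the main fit neither passed the test (edgeR, adjusted p = 0.228 for Crabp2 and 0.209 for Cyp26a1). With the replicate block both were called lower in GFP. The log2 fold changes were then -1.32 for Crabp2 (adjusted p = 0.000393) and -0.68 for Cyp26a1 (adjusted p = 0.0242). Summed macrophage markers were 158, 245 and 250.2 CPM in GFP libraries 1 to 3, against 1124, 1877 and 2819 CPM in Tomato libraries 1 to 3. Summed epithelial markers were likewise lowest in number 1 and highest in number 3 of both fractions (118 CPM in GFP libraries 1 and 2 and 148 CPM in 3, and 580.3, 644 and 704 CPM in Tomato). So were summed pericyte and smooth muscle markers (132, 136 and 194 CPM in GFP, 143, 185 and 230.0 CPM in Tomato). In the GFP fraction, Des (44.7, 66.4 and 78.9 CPM) was the only pericyte and smooth muscle marker with that order. Lymphatic endothelial markers had the opposite order, at 506, 364.5 and 319 CPM in GFP libraries 1 to 3, against 81.7, 51.7 and 26.1 CPM in Tomato libraries 1 to 3. Pan and blood endothelial markers had that order too, at 393, 359 and 334 CPM in GFP, against 185, 178 and 111 CPM in Tomato. Summed fibroblast markers did not follow the number in the GFP fraction and were 146895, 132001 and 136126 CPM in the same GFP libraries, against 98439, 80345 and 64404 CPM in the Tomato libraries. Their part in the Hox values was not tested.

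Most of the other genes inside the clusters had no count. Of 41 other genes between the outermost Hox genes of the clusters, 27 had no count in any library, in the column used or in the strand columns, among them the lincRNA Hotair and the microRNA genes Mir10a, Mir10b and Mir196b, whose mature forms a library of long RNA is not made to capture. Of these 27, 19 are annotated as microRNA or as misc_RNA (miscellaneous RNA) genes. Among the 27, 10 share at least 80 percent of their exon bases with another gene, where a count of 0 does not show that nothing was transcribed. Of the 8 that were tested, 2 were higher, both in cluster A, and none was lower, also at an unadjusted p under 0.05; over all genes tested 13.1% were higher and 15.7% lower. Hoxaas2, a transcript beside Hoxa3 on the opposite strand, had 2.05, 2.21 and 1.94 CPM in the GFP libraries, against 1.33, 0.824 and 0.896 CPM in the Tomato libraries (log2 fold change 1.02 ± 0.25, adjusted p = 0.0194), and did not pass when Tomato replicate 2 or either of GFP replicates 1 and 2 was left out. The coding gene 5730596B20Rik had 1.51, 1.46 and 1.41 CPM in the GFP libraries, against 0.70, 0.669 and 0.652 CPM in the Tomato libraries (1.11 ± 0.23, adjusted p = 0.0103). For both, all GFP libraries were above all Tomato libraries.

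Outside the clusters, 20 of the 24 nearest coding genes were tested, and 1 was higher and 5 lower, beside 13.1% higher and 15.7% lower over all genes tested. Atf7, a transcription factor gene beside cluster C, rose (log2 fold change 0.54 ± 0.14, adjusted p = 0.0208). Snx10 and Skap2, beside cluster A, fell by 0.63 and 0.47 on the log2 scale (adjusted p = 0.0021 and 0.00363), and Atp5g1, a subunit of ATP synthase beside cluster B, fell by 0.41 (adjusted p = 0.0308). The other two genes that fell were Mtx2 beside cluster D and Cbx5 beside cluster C. Leaving out 1 library, the calls of Snx10 and Skap2 held in all 6 fits, that of Atf7 was lost in 3 (those without Tomato replicate 2 or either of GFP replicates 1 and 2), that of Atp5g1 in 4 (all but those without GFP replicate 2 or Tomato replicate 1), and those of Mtx2 and Cbx5 in 5 (all but that without Tomato replicate 1). The median log2 fold change was 0.35 for the 8 inside and -0.17 for the 20 outside, and the difference between them was not tested. The homeobox genes Evx1 and Evx2, which flank clusters A and D at their posterior ends, had no count in any library.

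TALE homeodomain proteins bind DNA together with Hox proteins and sharpen their choice of sites. Of the 10 listed, all were tested, and 2 were higher and none lower (none at an unadjusted p under 0.05 either, nor with DESeq2 or limma-voom), with a median log2 fold change of 0.11, beside 13.1% higher and 15.7% lower over all genes. The count of higher genes was 1 in 5 of the 6 fits that leave out a library, all but the fit without GFP replicate 3. Pknox2 had 81.5, 77.7 and 83.1 CPM in the GFP libraries, against 59.9, 50.1 and 45.5 CPM in the Tomato libraries. Its fractions did not overlap, with a log2 fold change of 0.64 ± 0.11 (SE; edgeR, adjusted p = 0.00473). Meis3 had 23.7, 26.4 and 21.3 CPM in the GFP libraries, against 19.0, 19.2 and 16.8 CPM in the Tomato libraries (0.38 ± 0.11, adjusted p = 0.0393). Meis1 averaged 90.4 ± 0.285 CPM in GFP libraries and 84.9 ± 3.32 CPM in Tomato libraries, and Meis2 averaged 37.3 ± 0.926 and 33.9 ± 1.77 CPM in GFP and in Tomato libraries (SD, n = 3 each). The log2 fold changes of Pbx2, Pbx3, Meis1, Meis2 and Tgif1 were 0.03 to 0.16, those of Pbx4, Pknox1 and Tgif2 were -0.24 to -0.01, and none of these passed the test.

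MLL and trithorax proteins are known to keep active Hox genes on. Of 18 such genes tested, 9 were higher and 1 lower (median log2 fold change 0.31), beside 13.1% higher and 15.7% lower over all genes tested. The count of higher genes was 5 without GFP replicate 1 or without Tomato replicate 2. With the length and GC offsets 8 were higher and 0 lower, where 17.5% of all genes were higher and 10.4% lower. The log2 fold changes of Kmt2d and Kmt2b then shrank to 0.61 and 0.57. The calls of Kmt2d, Dot1l, Kmt2b, Ash1l and Dpy30 held without any 1 library. Kmt2d, a histone methyltransferase of enhancers, had 26.9, 23.4 and 22.6 CPM in the GFP libraries, against 14.5, 12.6 and 10.2 CPM in the Tomato libraries (0.97 ± 0.15, adjusted p = 0.00236). Dot1l, the methyltransferase of histone H3 lysine 79, had 94.4, 71.1 and 61.5 CPM in the GFP libraries, against 41.6, 37.1 and 34.2 CPM in the Tomato libraries (1.01 ± 0.16, adjusted p = 0.0031). Kmt2b, of the MLL family, rose as well (0.79 ± 0.16, adjusted p = 0.00948). Dpy30, a core subunit of the MLL complexes, fell (-0.66 ± 0.14, adjusted p = 0.0108), a call lost with the length and GC offsets (-0.22, adjusted p = 0.134). Exon bases were 19931 for Kmt2d and 1146 for Dpy30. Of 30 Polycomb genes, which keep Hox genes silent, 2 were higher and 1 lower (median 0.00), again beside 13.1% and 15.7% of all genes. Jarid2 rose (0.46 ± 0.11, adjusted p = 0.0182), as did Aebp2 (0.40 ± 0.12, adjusted p = 0.0427), both accessory subunits of Polycomb repressive complex 2. Rbbp4, a histone-binding subunit, fell (-0.33 ± 0.10, adjusted p = 0.0342). The call of Rbbp4 was lost in all fits that leave out a library but that without Tomato replicate 1, that of Jarid2 without GFP replicate 1 or Tomato replicate 2, and that of Aebp2 without either of these, GFP replicate 3 or Tomato replicate 3. With the length and GC offsets 5 Polycomb genes were higher, where 17.5% of all genes were. With the replicate block added 7 were higher, where 25.7% of all genes were. No Polycomb gene was higher when counts were scaled by library size alone, which moves the median of all genes by -0.16.

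Retinoic acid is known to switch on Hox genes in order from the anterior end. Of 17 genes of its pathway tested, 4 were higher and 1 lower (median log2 fold change 0.20). The receptor genes Rara (0.37 ± 0.09, adjusted p = 0.0181) and Rarg (0.44 ± 0.12, adjusted p = 0.0239) rose, as did Cyp26b1, which breaks retinoic acid down (0.70 ± 0.21, adjusted p = 0.0388); the other gene that rose was Rxra. Of these genes' list, 0 were higher without GFP replicate 1 or 2, 1 without GFP replicate 3, Tomato replicate 2 or Tomato replicate 3, 3 without Tomato replicate 1, and 0 when counts were scaled by library size. With the offsets 7 were higher, where 17.5% of all genes were, and with the block added 9, where 25.7% of all genes were. Aldh1a1, which makes retinoic acid, had 63.2, 67.8 and 62.3 CPM in the GFP libraries, against 117, 119 and 96.6 CPM in the Tomato libraries, and fell (-0.78 ± 0.10, adjusted p = 0.00132). Aldh1a2, the main such enzyme of embryonic mesoderm, had 1163 to 1379.8 CPM in GFP libraries and 938 to 1186 CPM in Tomato libraries and did not pass the test (0.20 ± 0.13). With the length and GC offsets it was called higher (0.48, adjusted p = 0.0304). Of 15 other axial patterning genes, 7 were tested. Egr2, a hindbrain factor that is also an early response gene, had 387 to 440.1 CPM in GFP libraries and 186 to 292 CPM in Tomato libraries (0.80 ± 0.16, adjusted p = 0.00824), Gdf11 rose (0.76 ± 0.17, adjusted p = 0.0128) and Gmnn, a regulator of DNA replication that also binds Hox proteins, fell (-0.84 ± 0.16, adjusted p = 0.00616). Cdx1, Cdx2 and Cdx4, the activators of posterior Hox genes, were not tested: Cdx4 had no count, Cdx1 was at or below 0.0597 CPM and Cdx2 at 0.0597 to 0.404 CPM in GFP libraries and 0.0933 to 0.154 CPM in Tomato libraries. Over all these lists, 19 of 82 genes tested were higher and 4 lower, which is 23.2% and 4.88% beside 13.1% and 15.7% of all genes; the difference was not tested.

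**Figure D5:**
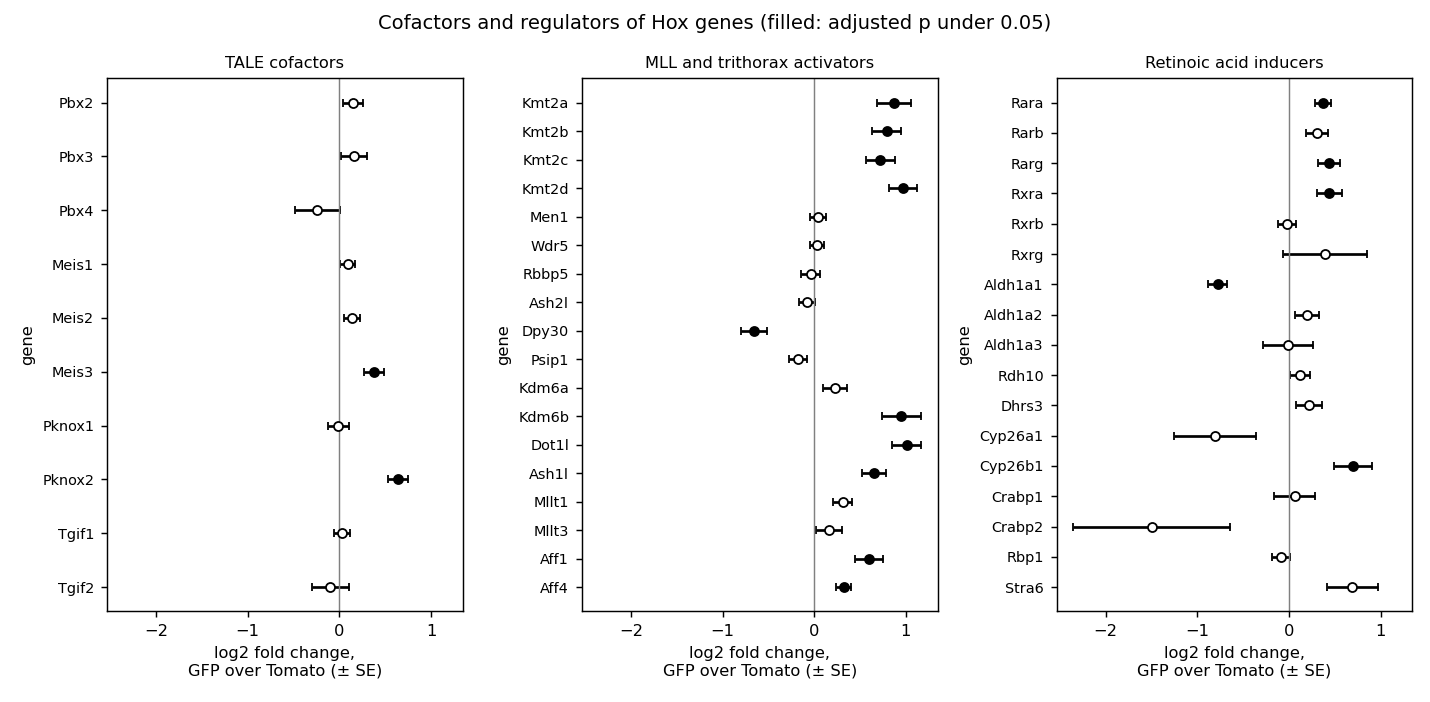
Fold change of the tested TALE cofactors, MLL and trithorax genes and retinoic acid genes, as log2 of GFP over Tomato with its standard error (horizontal axis), 1 gene per line. Filled points passed the test at an adjusted p of 0.05. In the MLL and trithorax list 9 filled points lie above 0 and that of Dpy30 below, and in the retinoic acid list Aldh1a1 is filled below 0 while Crabp2 and Cyp26a1 have wide error bars.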

How the data were processed

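Each sorted fraction gave 3 of the 6 libraries, made by TruSeq from 150 ng RNA, per the labels' protocols. Raw read counts of each gene were deposited by library, in 3 columns (strands together, forward and reverse, per the file headers). The tools, per the submitters' processing notes, were Trim Galore 0.4.3 and STAR 2.5.2b and the build GRCm38, with roles, filters and annotation release not given in the sources used here. Names and coordinates (1-based) came from GENCODE M21, which matched 49412 of 49671 identifiers; the others held 0.00762% of counts. Of the genes that meet the name rule or belong to a list, 2 are not reported here.

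The column for both strands was fitted whole with edgeR 4.0.16 in R 4.3.3: TMM scaling, filterByExpr (15608 genes kept), the robust quasi-likelihood F test, two-sided, Benjamini-Hochberg adjustment over all genes, threshold 0.05. The script was tested on simulated counts. A gene was called detected at a mean of 1 CPM in a fraction. RPKM used exon bases not shared with another gene. Promoters are those of RefSeq. Alternatives were other scalings (relative log expression, upper quartile, library size), no filter or 1 CPM in 3 libraries, DESeq2 1.42.0, limma-voom (limma 3.58.1), the replicate number as a block, 1 strand column, protein-coding genes only, offsets for exon length and GC content (splines with 4 degrees of freedom) with and without the block, and leaving out each library. Summing the strand columns and leaving out both libraries numbered 3 were chosen after seeing the data. Libraries of equal number deviated together from their group means (correlations 0.403, 0.108 and 0.347), each over 0.1 and above that of libraries of unequal number, a pairing that rests on the values alone, since no label states it. The main fit has no block, and the blocked value stands beside each named gene whose call it changes. Within a fraction, counts differed by more than sampling noise (chi-square of 28.0 to 118 for each degree of freedom), so no library was counted as a duplicate.

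The Hox genes, the position classes and the lists of neighbours, cofactors, regulators and markers were chosen with earlier results of these data known. The text names every Hox gene, all TALE cofactors listed and 8 defining markers. Of each other list and of the neighbourhood it names up to 3 genes up and 3 down with the smallest adjusted p. Further markers and retinoic acid genes, a gene at 0 in a list, and a member named beside a count of 5 or fewer, were chosen after their values were seen.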

Additional observations from a re-analysis of the deposited data

Results flagged for a closer look

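Reads in the single-strand columns, which the main comparison did not use, exceeded those in the column for both strands by at least 10 percent for 6 of the Hox genes with at least 20 counts. Over the 6 libraries they came to 8745 reads for Hoxb2, 1218 for Hoxb3, 717 for Hoxa3, 423 for Hoxb5, 237 for Hoxa4 and 114 for Hoxa7. The column for both strands held 4.09% of the reads in the strand columns for Hoxb2, 14.2% for Hoxb3, 71.4% for Hoxa3, 81.7% for Hoxb5, 82.9% for Hoxa4 and 87.9% for Hoxa7. Each of these genes overlaps other genes in the annotation, with 27.3% of exon bases shared for Hoxb2 and 3.6% for Hoxb5. Of their reads in the strand columns, 48.5% to 50.2% were in the forward column. The antisense genes Hoxb3os, Hoxaas2 and Hoxb5os had 9963, 696 and 425 reads there beyond those in the column for both strands. These are not all further reads. A read of an overlap can count for the gene on one strand in the forward column and for the other gene in the reverse column. The value for Hoxb3os equals those of Hoxb2 and Hoxb3 added together.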

How the results depend on the processing

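Of the 6 Hox calls, those of Hoxa3, Hoxa7, Hoxb5 and Hoxd8 were kept in all 20 alternatives; Hoxb6 lost its call in 9 and Hoxd9 in 1 (without Tomato replicate 2). The main fit called 5 Hox genes higher and 1 lower. With length and GC offsets 9 were higher, and with the same offsets and the replicate block 10 were higher and 3 lower. With the replicate block alone 3 were lower (Hoxa7, Hoxa10 and Hoxc8), and with no filter 2 (Hoxa7 and Hoxc10). Leaving out 1 library gave 4 to 5 higher and 1 to 3 lower. The 3 lower came without Tomato replicate 1 (Hoxa7, Hoxa9 and Hoxa10). Among those higher, Hoxb9 was called without GFP replicate 1 and Hoxb3 without Tomato replicate 2. The replicate block changed no other Hox call than those of Hoxb3, Hoxa10 and Hoxc8. Signs that turned were all of genes not called. With the length and GC offsets the log2 fold change was 0.14 for Hoxa5, 0.19 for Hoxb7, 0.02 for Hoxc4 and 0.13 for Hoxc5, and with the block added 0.13, 0.19, 0.02 and 0.13. For Hoxa6 it was -0.02 with the strand columns summed, -0.15 with library size scaling, -0.33 with 1 strand column, -0.18 without GFP replicate 2, with a range of -0.33 (without Tomato replicate 1) to 0.31 over the fits that leave out 1 library. Over those fits Hoxc6 ranged over -0.94 to 0.34 and Hoxc8 over -3.71 to 0.10, the upper ends without Tomato replicate 3, and without both libraries numbered 3 it was 0.15 for Hoxc6 and 0.0014 for Hoxc5. The regulator lists had 19 genes higher and 4 lower. Library size scaling gave 11 higher and 8 lower, and leaving out 1 library gave 8 to 19 higher and 3 to 5 lower. The offsets with the block gave 30 higher, where 25.7% of all genes were higher. The replicate block gave 8 lower, where 20.9% of all genes were lower. Of the genes inside and beside the clusters 3 were higher and 5 lower. Library size scaling gave 8 lower, and the offsets gave 3 lower, where 10.4% of all genes were lower. Leaving out both libraries numbered 3 gave 2 lower, and leaving out 1 library gave 1 to 3 higher and 2 to 6 lower. The cause of these shifts was not tested. The median of all genes moved by -0.16 with library size scaling and by 0.11 with the offsets. Low counts limit what can be said of the posterior genes most: 14 of 16 were not tested, and a count of 0 allows up to 3 counts.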
